A study of Mus musculus with 6 samples.

Results

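The mRNAs of 36 aminoacyl-tRNA synthetases were followed in the lateral cortex of mouse embryos at embryonic day (E) 12.5, 20 for cytosolic enzymes and 16 for mitochondrial enzymes. The members were taken from a list of names of the cytosolic and mitochondrial enzymes and not by any measured value. Earlier results of these data were known when that list was chosen. All 36 were present in the deposited table of 17068 genes. Bulk RNA-Seq had been performed on 6 female embryos labelled c57/bl6, 4 controls without Cre and 2 embryos labelled Foxp1cKO. Controls 1, 2 and 4 carried Foxp1 fl/+ and control 3 carried Foxp1 fl/fl, and both Foxp1cKO embryos were Foxp1 fl/fl with Emx1Cre, which drives recombination in progenitors of the dorsal telencephalon and their progeny. Every embryo therefore carried at least 1 floxed Foxp1 allele, and cells outside the Emx1 lineage, such as vessels, blood and ventral cells, keep Foxp1 in all of them. The comparison asks which transcripts depend on Foxp1 in the cortex when radial glia begin neurogenic divisions.

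Each aminoacyl-tRNA synthetase joins an amino acid to its own tRNAs, the step on which the accuracy of translation rests. The enzymes form 2 unrelated structural classes, I and II, and mitochondria import a separate set of enzymes that charge the tRNAs encoded in mitochondrial DNA. Several cytosolic enzymes are held in a multi-tRNA synthetase complex with scaffold proteins, and Eprs carries both the glutamyl and the prolyl enzyme in 1 protein. Gars and Kars each supply the cytosol and the mitochondria from 1 gene, and they are counted here as cytosolic. Neural progenitors and young neurons need both sets for protein synthesis and for respiration.

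Libraries held 50076008 to 78346979 counts on genes, and the smallest count of any member in any library was 544. The part of counting error in the spread between embryos was not separated for each member. Levels are given as CPM (counts scaled to a common library size with edgeR's TMM factors), and 3 counts equal 0.0383 to 0.0599 CPM. Foxp1 had 59.7, 60.8, 71.2 and 79.1 CPM in controls 1 to 4 and 83.2 and 76.8 CPM in the libraries labelled Foxp1cKO 1 and 2, so the count over the whole gene was not lower in the latter. The floxed exons were not counted apart, so this count does not show whether they were lost. The study cites its authors' earlier work, in which recombination and a significant loss of Foxp1 protein came before the stage used here. Of 10 radial glial markers 9 were in the table, and of 8 cortical neuron markers 7 were, summing to 2198 to 2767 CPM and 2798 to 5048 CPM in the controls and to 2493 and 2549 CPM and 3628 and 3797 CPM in the libraries labelled Foxp1cKO. The 5 markers of mural cells of vessels summed to 68.2 to 88.3 CPM in the controls and to 111 and 116 CPM in the libraries labelled Foxp1cKO, all 5 with a positive log2 fold change (median 0.48), and the part of these sums in the synthetase values was not tested. The 9 red blood cell genes summed to 1099.5 to 1451 CPM in controls 1 to 3, to 3544 CPM in control 4 and to 3849 and 4143 CPM in the libraries labelled Foxp1cKO. The 9 ventral telencephalic markers summed to 903 CPM in control 3, to 271 to 405 CPM in the other controls and to 591 and 434 CPM in the libraries labelled Foxp1cKO. The 8 markers of cycling cells summed to 3089 CPM in control 3, to 4434 CPM in control 4 and to 3487 and 3261 CPM in the libraries labelled Foxp1cKO. No marker of these lists was at 0 in a library. The 7 endothelial markers summed to 122 to 189 CPM in the controls and to 152 and 185 CPM in the libraries labelled Foxp1cKO. These sums overlapped, and the median log2 fold change was 0.02. The 6 markers of meningeal fibroblasts summed to 562, 172, 92.7 and 367 CPM in controls 1 to 4 and to 150 and 340 CPM in the libraries labelled Foxp1cKO. In bulk tissue fewer cells of a type and less RNA per cell cannot be told apart.

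Cytosolic synthetase mRNAs were mostly lower in the libraries labelled Foxp1cKO, by small amounts. Of the 20 enzymes, 17 had a negative log2 fold change, beside 8661 of the 17068 genes in the table. The median of the enzymes was -0.17, against -0.00 for all genes in the table. In 13 of the 20 both libraries labelled Foxp1cKO lay below all 4 controls, and in none did both lie above them, while over all genes 13.1% lay below and 11.5% above. No enzyme of either class passed the quasi-likelihood test of edgeR after p-values were adjusted over the whole table by the Benjamini-Hochberg method, which called 0.152% of genes. The lowest adjusted p among the 36 was 0.236. At an unadjusted p under 0.05, 9 of the 20 cytosolic enzymes were lower (Aars, Cars, Farsa, Gars, Hars, Lars, Mars1, Wars and Yars) and none was higher, against 6.50% of all genes lower and 6.53% higher. DESeq2, run as an alternative on the same counts, called Aars, Cars, Farsa and Wars lower, with 1.31% of the genes it tested called lower and 2.06% called higher. Because the cytosolic enzymes are all well expressed, the shares were also taken over the 4092 genes whose mean control level lay within their range, 59.7 to 287 CPM. Of these genes 62.1% had a negative log2 fold change, and their median was -0.05. At an unadjusted p under 0.05, 11.0% of them were lower, and 19.2% had both libraries labelled Foxp1cKO below all controls.

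**Figure D1:**
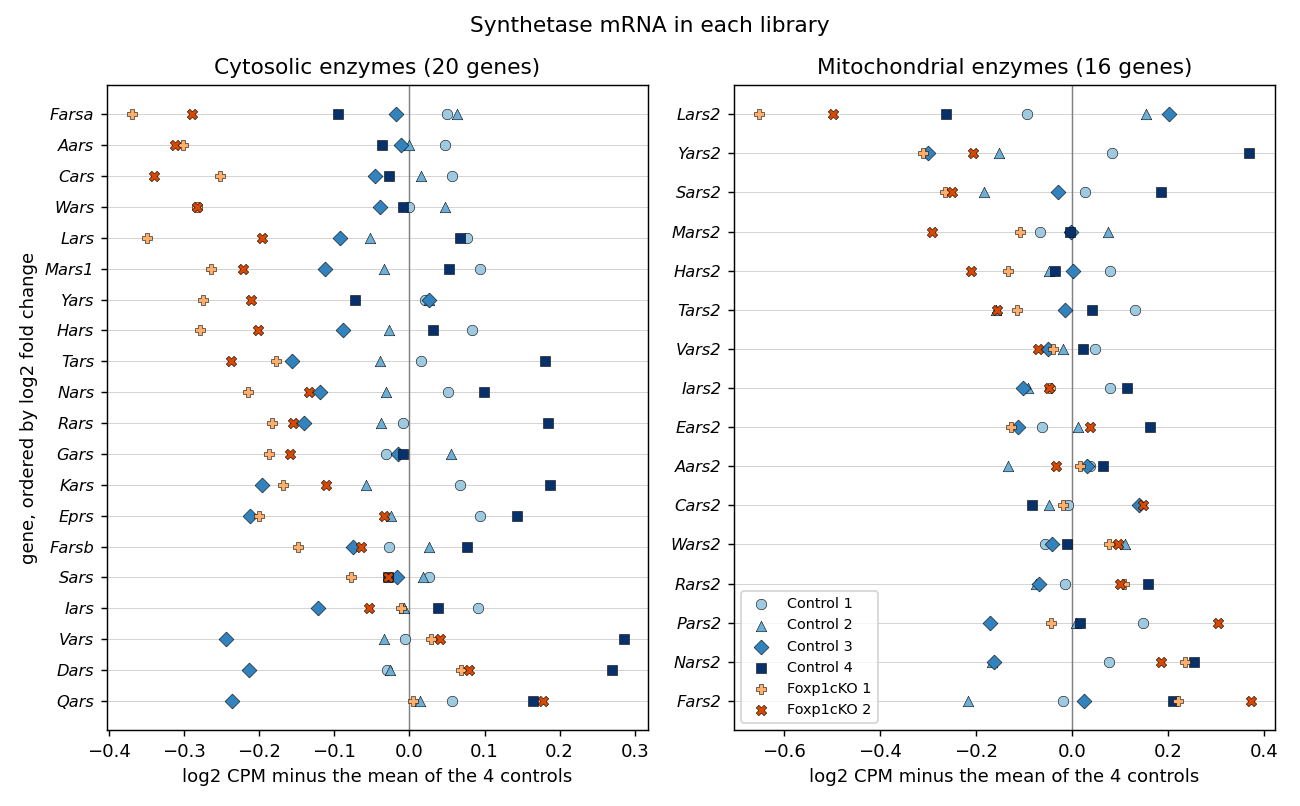
Each row is 1 synthetase gene and each point 1 library, plotted as log2 CPM minus the mean of the 4 controls (blue, controls; orange, libraries labelled Foxp1cKO; the 2 panels have different x ranges). In 13 of the 20 cytosolic enzymes both orange points lie to the left of all 4 blue points, and in 4 of the 16 mitochondrial enzymes.

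Aars and Wars, 2 of the cytosolic enzymes with the lowest fold changes, had nearly the same level in every control. Aars, the alanyl enzyme (chromosome 8, 111033144 to 111057664, plus strand, GRCm38), had 188, 182, 181 and 177 CPM in controls 1 to 4 and 148 and 147 CPM in the libraries labelled Foxp1cKO 1 and 2. The 2 groups did not overlap, and the log2 fold change was -0.31 (SE 0.0661, edgeR adjusted p = 0.236, DESeq2 adjusted p = 0.00287). Wars, the tryptophanyl enzyme (chromosome 12, 108860030 to 108894174, minus strand), had 98.2, 102, 95.7 and 97.7 CPM in the controls and 80.8 CPM in each library labelled Foxp1cKO. Its fold change was -0.28 on the log2 scale (SE 0.0668, edgeR adjusted p = 0.242, DESeq2 adjusted p = 0.00863). In both genes the coefficient of variation among controls was under 3%, and the distance to the nearest library labelled Foxp1cKO exceeded the whole control range.

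Farsa encodes the catalytic subunit of the phenylalanyl enzyme, which works as a tetramer with the product of Farsb. Farsa had 74.5, 75.2, 71.2 and 67.4 CPM in the controls and 55.7 and 58.9 CPM in the libraries labelled Foxp1cKO, a log2 fold change of -0.33 (SE 0.0799, edgeR adjusted p = 0.242), the lowest of the cytosolic class. Farsb had 85.1, 88.3, 82.3 and 91.4 CPM against 78.2 and 82.9 CPM, a log2 fold change of -0.11 with an SE of 0.0761. The Farsa groups were thus apart, whereas the Farsb groups overlapped at control 3 and Foxp1cKO 2. Cars, the cysteinyl enzyme, had 62.0, 60.3, 57.8 and 58.6 CPM in the controls and 50.1 and 47.1 CPM in the libraries labelled Foxp1cKO, a log2 fold change of -0.30 (SE 0.0744, edgeR adjusted p = 0.243). DESeq2 gave adjusted p = 0.0323 for Farsa and 0.0257 for Cars.

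The next enzymes in order, Lars, Mars1, Yars and Hars, had log2 fold changes of -0.27, -0.25, -0.24 and -0.24, and in each of them the groups were apart. Tars, Nars, Rars and Gars followed with -0.21, -0.18, -0.17 and -0.17, again with both libraries labelled Foxp1cKO below all controls. For these 8 genes the edgeR adjusted p lay between 0.280 (Yars) and 0.496 (Rars). Gars, which charges glycine in both compartments, was among the steadiest, with 185, 196, 187 and 188 CPM in the controls against 166 and 169 CPM. Kars, which charges lysine in both compartments, had 184, 168, 153 and 199.7 CPM in the controls and 156 and 162 CPM in the libraries labelled Foxp1cKO, so its groups overlapped at control 3. Sars, the seryl enzyme, was barely lower, at 177, 176, 172 and 170.3 CPM against 165 and 170.2 CPM, a log2 fold change of -0.05.

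Iars, Vars, Dars and Qars lay close to no difference. Vars, the valyl enzyme, had 159.9, 157, 136 and 196 CPM in controls 1 to 4 and 164 and 165 CPM in the libraries labelled Foxp1cKO. Dars, the aspartyl enzyme, had 105, 106, 92.8 and 129.7 CPM against 113 and 114 CPM. Qars, the glutaminyl enzyme, had 109, 106, 88.8 and 117 CPM against 105 and 118 CPM. In all 3 the controls alone spanned the libraries labelled Foxp1cKO or nearly so, with control 3 lowest and control 4 highest among controls, and the log2 fold changes were 0.02, 0.06 and 0.09. These 3 were the cytosolic enzymes with a positive value, and each of them turned negative when control 3 was left out (-0.07, -0.02 and -0.00). Iars, the isoleucyl enzyme, had 217, 203, 187 and 209 CPM against 202 and 196 CPM, with a log2 fold change of -0.03. A processed pseudogene not in the table, Gm4849, matches 2251 aligned bases of the Iars transcript at 94.7% identity, so the Iars count is uncertain to that extent.

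**Figure D2:**
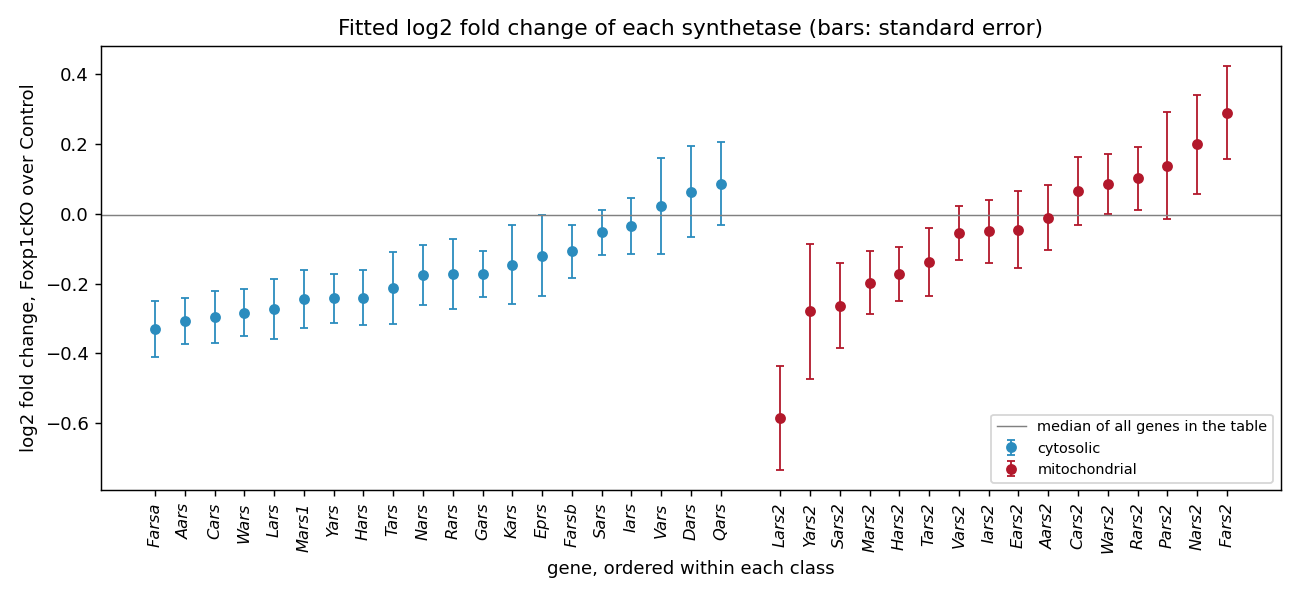
The y axis gives the fitted log2 fold change of each synthetase (libraries labelled Foxp1cKO over controls) with its standard error, cytosolic enzymes at left in blue and mitochondrial enzymes at right in red, and the grey line marks the median of all genes. The cytosolic values run from -0.33 (Farsa) to 0.09 (Qars) and the mitochondrial ones from -0.58 (Lars2) to 0.29 (Fars2).

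The cytosolic enzymes were also split by whether they belong to the multi-tRNA synthetase complex. Of the 8 complex enzymes (Dars, Eprs, Iars, Kars, Lars, Mars1, Qars and Rars), 6 were lower with a median of -0.13, and in 3 both libraries labelled Foxp1cKO lay below all controls. Of the 12 enzymes outside the complex, 11 were lower with a median of -0.23, and in 10 the groups were apart. Both libraries labelled Foxp1cKO lay below all controls in 13.1% of all genes and in 19.2% of genes in the cytosolic range of control level. The difference between the complex enzymes and the others was not tested. The controls themselves were unequal in the complex list, where control 4 exceeded control 3 by a median of 0.34 on the log2 scale, against 0.02 outside the complex and 0.55 for the 8 cycling cell markers. Eprs had 304, 281, 246 and 315 CPM in the controls and 248 and 279 CPM in the libraries labelled Foxp1cKO. Set against control 3 alone, the libraries labelled Foxp1cKO were lower in 3 of 8 complex enzymes and in 11 of 12 others, and against control 4 alone in all 20. Control 3 held the most ventral marker RNA and control 4 the most cycling marker RNA. Control 3 was also the only control with Foxp1 fl/fl, as in the libraries labelled Foxp1cKO, the others being Foxp1 fl/+. With a single such control, genotype and embryo cannot be told apart. The part of genotype or of either marker RNA in these values was not tested.

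**Figure D3:**
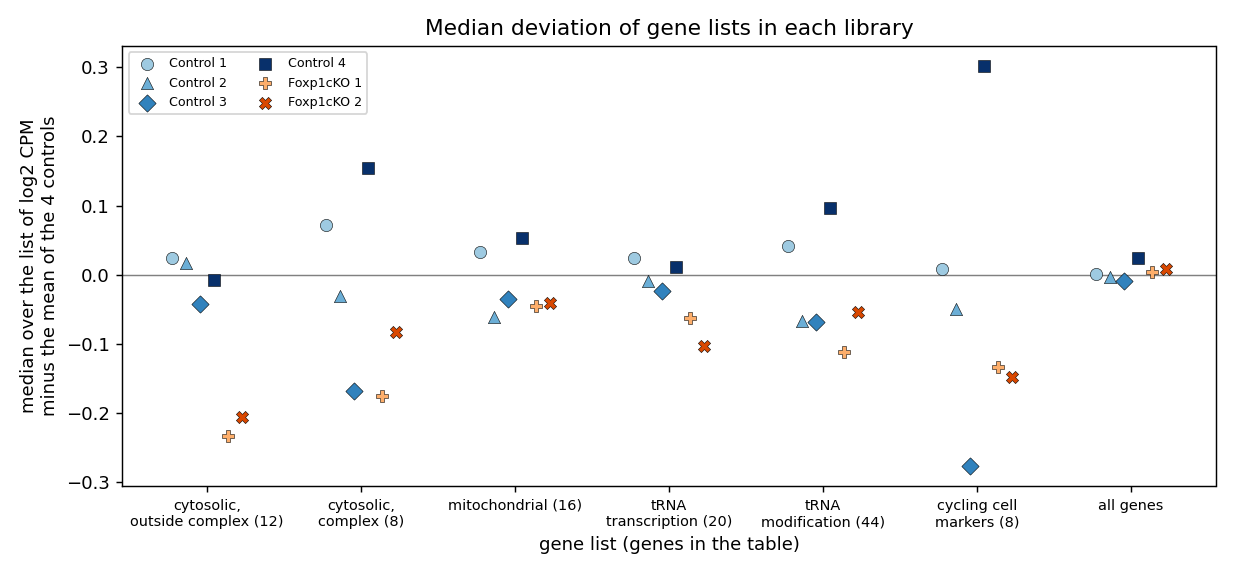
For each list named on the x axis, a point gives the median over its genes of log2 CPM minus the control mean in 1 library (blue, controls; orange, libraries labelled Foxp1cKO). Outside the complex the 4 controls lie between -0.04 and 0.02 and the libraries labelled Foxp1cKO at -0.23 and -0.21, whereas the complex enzymes spread among controls from -0.17 in control 3 to 0.15 in control 4, as the cycling cell markers do from -0.28 to 0.30.

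By structural class, 7 of 9 cytosolic class I enzymes and 9 of 10 cytosolic class II enzymes were lower, with medians of -0.24 and -0.17. Eprs, which joins an enzyme of each class, is in neither count. A further grouping takes 13 cytosolic enzymes that are often listed as targets of ATF4, the transcription factor induced by amino acid shortage through the kinase Gcn2. Of these 13, 12 were lower, with a median of -0.21, and in 10 both libraries labelled Foxp1cKO lay below all controls. The latter held for 13.1% of all genes and for 19.2% of genes in the cytosolic range of control level. Of the 7 cytosolic enzymes outside the ATF4 list 5 were lower, with a median of -0.15. Atf4 itself had a log2 fold change of -0.17 (SE 0.0793, edgeR adjusted p = 0.420).

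ATF4 binds a composite element with C/EBP partners, and promoter sequence was available from RefSeq (GRCm38.p6) for 27 members, 13 cytosolic and 14 mitochondrial. Each window runs from 250 bases before to 50 bases after an annotated start. Cars, Hars, Lars, Nars, Rars, Vars, Wars, Hars2 and Pars2 were not matched in the promoter set used here. The letters TGATGNAAN, searched on both strands, occurred in 3.95% of all 32851 promoter windows. They occurred in a window of 5 of the 13 matched cytosolic genes and of none of the 14 mitochondrial genes. The first value is a share of windows and the others count genes, where a gene with several windows counts once. The E-box, CACGTG, was searched as well and occurred in 7.15% of the windows. It was in a window of 4 of the 13 matched cytosolic genes (Aars, Farsb, Iars and Tars) and of 1 of the 14 mitochondrial genes (Ears2). The TGATGNAAN match nearest the start is printed for each of its 5 genes, because all fall in the class that was lower. It is given in the 5′ to 3′ direction of the gene, with the matched letters in capitals.

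Aars, chr8:111033840-111033868, plus strand, bases 9 to 17 of the transcript: agcgggtcacTTTTCATCAgagcgctctg
Gars, chr6:55037960-55037988, plus strand, 31 to 23 bases before the start: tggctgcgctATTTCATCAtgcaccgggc
Iars, chr13:49682126-49682154, plus strand, bases 7 to 15 of the transcript: cactgtcagtATTGCATCAcctccagacg
Tars, chr15:11399656-11399684, minus strand, 16 to 8 bases before the start: caggagtcccGTTGCATCAgctggttagc
Yars, chr4:129189896-129189924, plus strand, bases 4 to 12 of the transcript: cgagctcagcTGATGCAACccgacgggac

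The capitals read as the searched letters in Yars and as their reverse complement in the other genes. The log2 fold changes of these 5 genes were -0.31 (Aars), -0.17 (Gars), -0.03 (Iars), -0.21 (Tars) and -0.24 (Yars). In Aars, Gars, Tars and Yars both libraries labelled Foxp1cKO lay below all controls, and in Iars they did not. Both lay below all controls in 13.1% of all genes and in 19.2% of genes in the cytosolic range of control level. The matched cytosolic enzymes without TGATGNAAN ran from -0.33 (Farsa) to 0.09 (Qars). Of these, Farsa, Mars1 and Sars also had both libraries labelled Foxp1cKO below all controls. Dars, Eprs, Farsb, Kars and Qars did not. A link between the letters and these values was not tested.

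The mitochondrial enzymes were divided in direction. Of the 16, 10 were lower and 6 higher, with a median log2 fold change of -0.05. In 4 both libraries labelled Foxp1cKO lay below all controls (Hars2, Lars2, Mars2 and Sars2), and in 1 both lay above (Fars2). Only Lars2 had an unadjusted p under 0.05, 1 of 16. Shares were again taken over the 6357 genes within the control range of the mitochondrial enzymes other than Lars2, 11.2 to 81.2 CPM. Of these genes 55.7% had a negative log2 fold change and 8.40% were lower at an unadjusted p under 0.05. In 16.8% both libraries labelled Foxp1cKO lay below all controls. Without Lars2, 9 of the other 15 enzymes were lower, 0 of them at an unadjusted p under 0.05. In 3 of these 15 both libraries labelled Foxp1cKO lay below all controls. Hars2 and Hars share 195 bases of exon on opposite strands, and Iars2 shares 22.9% of its exon bases with Rab3gap2 on the opposite strand. The kit was stranded, but the strand setting of the counting is not given in the sources used here, so such overlaps leave the counts of these genes uncertain. The same holds for Farsb and Sgpp2, which share 9.47% of the exon bases of Farsb, and for Fars2 and Nrn1, which share 8.72% of those of Fars2. On the same strand, Aars shares 1326 exon bases with Exosc6, a gene not analysed here, and its count is uncertain to that extent.

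Lars2, the mitochondrial leucyl enzyme (chromosome 9, 123366927 to 123462666, plus strand), stood apart from its class in level per length and in fold change. It had 1055, 1254, 1296 and 939.7 CPM in controls 1 to 4 and 717 and 799 CPM in the libraries labelled Foxp1cKO 1 and 2. The groups did not overlap, and the log2 fold change was -0.58 (SE 0.149, edgeR adjusted p = 0.248, DESeq2 adjusted p = 0.0248). Lars2 alone made up 64.5% to 73.3% of the CPM summed over the 16 mitochondrial enzymes, not corrected for length, in controls and 60.2% and 62.5% in the libraries labelled Foxp1cKO. Without it the other 15 summed to 464 to 516 CPM in the controls and to 475 and 479 CPM in the libraries labelled Foxp1cKO, so those sums overlapped.

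The Lars2 transcript (3894 bases, of which 2706 are coding) holds 72 bases, from 3278 to 3349, that match the non-coding gene Gm15564 (chromosome 16, 35966752 to 35983230) at 98.6% identity on the same strand. Gm15564 had 32.1, 31.8, 36.2 and 26.0 CPM in the controls and 13.6 and 15.3 CPM in the libraries labelled Foxp1cKO. Its log2 fold change was -1.13 (SE 0.149, edgeR adjusted p = 0.0659, DESeq2 adjusted p = 3.11e-08). Both genes were highest in control 3, lowest among controls in control 4 and lowest of all in Foxp1cKO 1, and the part of the shared stretch in the Lars2 count was not tested. No other member besides Lars2, with Gm15564, and Iars, with Gm4849, had a match to an annotated transcript from elsewhere of at least 60 bases at 95% identity or of at least 500 bases at 90%.

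**Figure D4:**
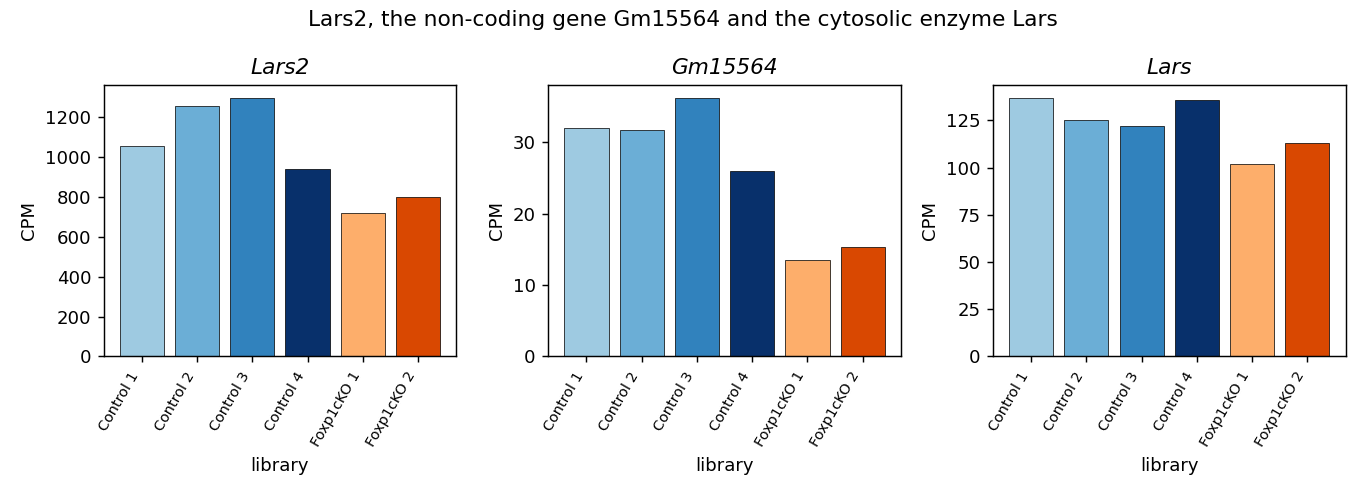
Bars give CPM in each library for Lars2 (left), the non-coding gene Gm15564 with which it shares 72 bases (middle) and the cytosolic leucyl enzyme Lars (right), each on its own axis from 0. In all 3 genes both orange bars (libraries labelled Foxp1cKO) are below the 4 blue control bars.

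None of the other 15 mitochondrial enzymes had an unadjusted p under 0.05. Hars2, the histidyl enzyme, had 51.0, 46.7, 48.3 and 47.1 CPM in the controls and 43.95 and 41.7 CPM in the libraries labelled Foxp1cKO. Its groups were apart, with a log2 fold change of -0.17 (SE 0.0767, edgeR adjusted p = 0.402). Yars2, the tyrosyl enzyme, had 19.4, 16.5, 14.9 and 23.7 CPM in the controls and 14.8 and 15.9 CPM in the libraries labelled Foxp1cKO, and its fold change of -0.28 had an SE of 0.193. Control 3 and the libraries labelled Foxp1cKO could not be separated in it. Sars2, the seryl enzyme, had 21.9, 18.9, 21.05 and 24.4 CPM against 17.9 and 18.0 CPM, with a log2 fold change of -0.26 (SE 0.122). Mars2, the methionyl enzyme, had 32.4, 35.7, 33.9 and 33.8 CPM against 31.5 and 27.7 CPM, with a log2 fold change of -0.20 (SE 0.0897). The Sars2 and Mars2 groups were apart by less than the spread within a group, and the edgeR adjusted p-values were 0.412 and 0.407.

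At the other end, Fars2, the phenylalanyl enzyme, had 18.7, 16.3, 19.2 and 21.9 CPM in the controls and 22.0 and 24.5 CPM in the libraries labelled Foxp1cKO. Its log2 fold change was 0.29 (SE 0.133, edgeR adjusted p = 0.409), and control 4 and Foxp1cKO 1 were almost equal. Nars2, the asparaginyl enzyme, had 20.8, 17.6, 17.6 and 23.5 CPM against 23.2 and 22.4 CPM, with control 4 above both libraries labelled Foxp1cKO. Pars2, the prolyl enzyme and the member with the lowest count, had 12.3, 11.2, 9.89 and 11.3 CPM against 10.8 and 13.7 CPM. Rars2, the arginyl enzyme, had 49.1, 47.1, 47.3 and 55.3 CPM against 53.5 and 53.1 CPM. The groups overlapped in these 3, whose log2 fold changes were 0.20, 0.14 and 0.10. Tars2, the threonyl enzyme, had 49.6, 40.6, 44.9 and 46.6 CPM against 41.8 and 40.7 CPM, a log2 fold change of -0.14, with control 2 below both libraries labelled Foxp1cKO. The other 6 (Aars2, Cars2, Ears2, Iars2, Vars2 and Wars2) had log2 fold changes from -0.06 to 0.08, each closer to 0 than its own standard error, of which the median over the class was 0.0973.

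The medians of the classes differed by -0.13 (cytosolic minus mitochondrial, log2), a difference given without a test. With 1 library dropped at a time it lay between -0.15 and -0.12. The cytosolic median was below 0 against every single control, at -0.22, -0.16, -0.05 and -0.26 for controls 1 to 4. The mitochondrial median was -0.07, -0.00, 0.02 and -0.11 against the same controls. The cytosolic median was thus closest to 0 against control 3, the only Foxp1 fl/fl control. Within each library the levels of 15 pairs charging the same amino acid were also set against each other as a log2 ratio of cytosolic to mitochondrial CPM, with Farsa and Farsb each paired with Fars2. In 10 pairs the ratio was lower in the libraries labelled Foxp1cKO, in 7 of them below all 4 controls (Aars, Cars, Farsa, Farsb, Nars, Rars and Wars with their partners), and in none was it above all controls. The median difference over the 15 was -0.07. No share was taken over pairs of other genes, so these counts have no background beside them. The Farsa and Farsb ratios are not separate, since both rest on Fars2, which was itself higher in the libraries labelled Foxp1cKO. The Wars to Wars2 ratio was 1.95, 1.83, 1.90 and 1.90 in the controls and 1.54 and 1.52 in the libraries labelled Foxp1cKO. The ratio of Lars to Lars2 went the other way, from a control mean of -3.12 by 0.30, with control 4 above both libraries labelled Foxp1cKO.

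Per length, cytosolic synthetase mRNAs were more abundant than the mitochondrial ones. The median control level was 42.3 CPM per kb of transcript in the cytosolic class and 11.7 in the mitochondrial class, 3.61 times lower, and 54.2 and 17.6 CPM per kb of coding sequence. The cytosolic order ran from Kars (87.8 ± 9.97 CPM per kb, SD, n = 4) and Gars (79.5 ± 2.10) through Eprs (58.4 ± 6.22) to Aars (31.6 ± 0.783), Tars (22.4 ± 2.20) and Cars (18.5 ± 0.586). Kars and Gars did not separate across controls, since Kars ranged from 76.3 to 99.5 and Gars from 77.7 to 82.5, whereas Tars and Cars did. This order too rests on the annotated transcripts. Per kb of coding sequence Sars was highest of the class at 113, and Aars had 62.7, above the class median. In the mitochondrial class Lars2 (292 ± 43.1) was followed by Rars2 (26.6 ± 2.07) and Tars2 (18.9 ± 1.57), and Nars2 (5.26 ± 0.758), Pars2 (5.10 ± 0.456) and Mars2 (3.00 ± 0.122) were lowest. Nars2 and Pars2 overlapped, and Mars2 lay below both. The rank of Mars2 rests on a long annotated transcript, for per kb of coding sequence it had 19.3 against 7.84 for Pars2. In 14 of the 15 pairs the cytosolic mRNA had the higher level per kb of transcript, from 1.10 times (Cars) to 10.7 times (Mars1), and Lars to Lars2 was the exception at 0.113. Per kb of coding sequence it was again higher in 14, by 1.24 times for Cars and 1.80 times for Mars1, so the value of Mars1 too rests on the transcript of Mars2.

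**Figure D5:**
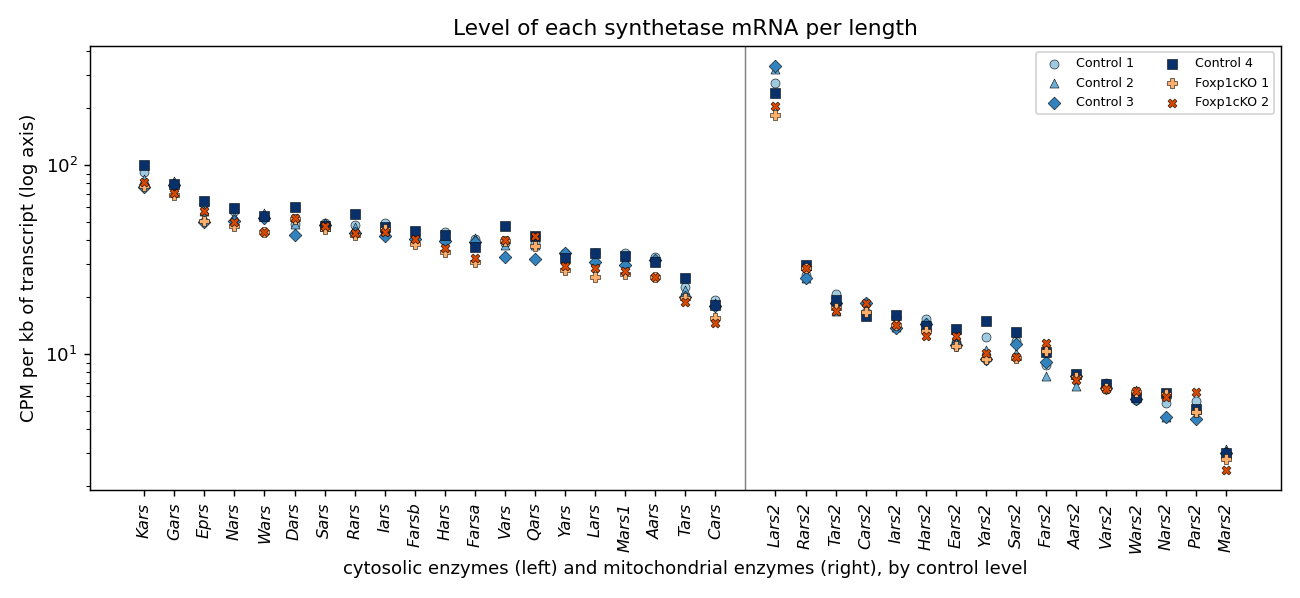
The y axis (log scale) gives CPM per kb of transcript for each synthetase in each library (blue, controls; orange, libraries labelled Foxp1cKO), ordered by control level within the cytosolic class at left and the mitochondrial class at right. Lars2 lies between 184 and 333, the other mitochondrial enzymes between 2.45 and 29.6 and the cytosolic ones between 14.6 and 99.5, over all 6 libraries.

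Genes that work beside the synthetases were mostly a little lower as well, and none of them passed the edgeR test. The scaffold proteins of the complex, Aimp1, Aimp2 and Eef1e1, had log2 fold changes of -0.10, -0.09 and 0.05. Mitochondria make their glutaminyl-tRNA from the glutamate that Ears2 attaches, through an amidotransferase of Qrsl1, Gatb and Gatc. The values of its subunits were unequal, Qrsl1 at -0.36 (SE 0.0886, edgeR adjusted p = 0.242, DESeq2 adjusted p = 0.0186), Gatb at 0.27 and Gatc at -0.17. Qrsl1 had 37.5, 35.9, 38.7 and 41.0 CPM in the controls and 30.9 and 28.6 CPM in the libraries labelled Foxp1cKO, and Gatb had 19.3, 18.7, 19.4 and 20.2 CPM against 23.0 and 23.8 CPM. The groups were apart in both genes, in opposite directions.

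Of 20 genes of RNA polymerase III transcription of tRNA genes, its repressor Maf1 included, 17 were lower with a median of -0.09. At an unadjusted p under 0.05, 4 were lower (Gtf3c4, Gtf3c6, Maf1 at -0.24 and Polr3k) and none was higher, beside 6.50% of all genes lower, and in 8 both libraries labelled Foxp1cKO lay below all controls, beside 13.1%. Of these, DESeq2 called Gtf3c4 (-0.30) and Gtf3c6 lower (adjusted p = 0.00343 and 0.00591), with an edgeR adjusted p of 0.242 for both. The largest values were 0.34 for Polr3g, -0.33 for Polr3k and -0.31 for Gtf3c6, a subunit of the factor TFIIIC. Of 24 genes of tRNA processing and export in the table, 18 were lower with a median of -0.13, led by Pop5 (-0.39), Tsen54 (-0.37) and Rpp21 (-0.32). Of 44 tRNA modification genes, 33 were lower with a median of -0.08, led by Trmt61a (-0.48), Thg1l (-0.36) and Yrdc (-0.32). Pop7, Ctu2 and Adat3 were not analysed here. The lowest adjusted p in these 3 lists was 0.242.

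Elongation factors and mitochondrial translation factors were divided in direction. Eef1a1 and Tufm bring charged tRNA to the cytosolic and the mitochondrial ribosome. Of 6 cytosolic elongation factors 3 were lower and 3 higher, with Eef2 at 0.27, Eif5a at -0.19 and Eef1a1 at 0.13. Of 9 mitochondrial translation factors 5 were lower, with Tsfm at -0.39, Tufm at -0.20 and Mtif3 at 0.13. Of 22 genes of the ATF4 amino acid response outside the synthetases, 10 were lower and 12 higher with a median of 0.09. Trib3 (1.08), Eif4ebp1 (0.81) and Chac1 (0.79) had the largest values of that list, all positive, with edgeR adjusted p-values of 0.453, 0.399 and 0.332. These are weakly expressed genes, and on the VST scale limma gave 0.54, 0.63 and 0.30. Trib3 had 0.920, 0.531, 0.809 and 2.46 CPM in the controls and 2.40 and 2.62 CPM in the libraries labelled Foxp1cKO, so control 4 lay between these 2 libraries. Chac1 had 0.840, 1.08, 0.988 and 0.610 CPM against 1.51 and 1.52 CPM. In 7 of the 22 both libraries labelled Foxp1cKO lay above all controls and in 4 below, beside 11.5% and 13.1% of all genes. The median of the 22 was 0.44 against control 3 alone and -0.01 against control 4 alone, and control 4 exceeded control 3 by a median of 0.38.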

How the data were processed

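Per the labels and the study's methods, the authors made stranded libraries from lateral cortex, mapped the read pairs to mm10 (STAR), took gene counts with HTSeq 0.9.1 (union mode) and left out weakly counted genes. They deposited whole counts without normalization, and DESeq2 VST values of them on a log2-like scale (deposited log2 values). The strand setting of the counting is not given in the sources used here, and the litter, which their model held, was not used here.

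Counts were tested in R 4.3.3 with edgeR 4.0.16's quasi-likelihood test (TMM, group alone, 17068 genes, Benjamini-Hochberg, adjusted p under 0.05). DESeq2 1.42.0 and limma 3.58.1 on the VST values were alternatives. The SE (standard error) of a log2 fold change was derived as its absolute value divided by the square root of edgeR's F statistic. Log2 CPM used a prior count of 2. Each fit was tested on simulated data, in which edgeR found few of the smallest changes set and DESeq2 made more false calls than edgeR or limma. The simulated counts were drawn with edgeR's dispersions, and limma was run there on scaled log2 counts in place of VST values. Symbols, positions and lengths of 1 principal transcript a gene came from GENCODE M21 (17047 identifiers matched, and Mars1 is Mars there), promoters from RefSeq, and shared stretches from blastn 2.17.0. The members, the gene lists and the motifs were chosen with earlier results of these data known. All members are named, and of other lists the 3 largest values. Library values are given for the 4 lowest and 4 highest fold changes and the 3 highest and lowest levels per length in each class, and other members shown with them were chosen after their values were seen. P-values measure only the spread between these embryos. With 4 libraries against 2 an exact permutation test cannot go below 0.133. Pairs of replicates differed by a chi-square of 25.9 to 193 per gene, so none was a repeat of another. Floors cover counting error only. Some items are not reported here.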

Additional observations from a re-analysis of the deposited data

Results flagged for a closer look

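Among the 36 members, 1 had a control far from the other 3. Yars had 99.7, 100.1 and 100.1 CPM in controls 1 to 3 and 93.5 CPM in control 4, a gap of 0.937 of the whole control range. About 1 in 20 groups is picked out in this way by chance. Control 4 lay above both libraries labelled Foxp1cKO (81.3 and 84.9 CPM), and without it the log2 fold change of Yars kept its direction.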

How the results depend on the processing

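The cytosolic median lay between -0.23 and -0.15 under the refits, with 17 to 20 of the 20 enzymes lower. Against control 3 alone, the only Foxp1 fl/fl control, it was -0.05 with 14 lower, and against control 4 alone -0.26 with 20 lower. No member was called by edgeR or limma under any of them, whereas DESeq2 called 5 (Aars, Cars, Farsa, Wars and Lars2), with 507 genes called in all against 26 by edgeR. On simulated counts, too, DESeq2 made more calls than edgeR, and more of them were false. Those counts were drawn with edgeR's own dispersions, so they cannot decide which calls are right in these data. With 1 library dropped at a time, cytosolic medians ran from -0.23 to -0.15, mitochondrial medians from -0.091 (without control 3) to -0.00018 (without control 4), and the class difference from -0.15 to -0.12. The cytosolic enzymes lower at an unadjusted p under 0.05 then numbered 4 (without Foxp1cKO 1, with 2.05% of all genes) to 13 (without control 3, with 9.39%) and the mitochondrial ones 1 to 2. Against control 4 alone the mitochondrial median was -0.11; the comparisons with single controls were chosen after seeing the data. Dropping Lars2 gave -0.05.

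Values near 0 changed sign. With 1 library dropped, Dars ran from -0.017 to 0.16, Qars from -0.019 to 0.17, Vars from -0.067 to 0.13, Aars2 from -0.054 to 0.010, Cars2 from -0.039 to 0.15, Ears2 from -0.15 to 0.034 and Pars2 from -0.064 to 0.30. Against control 4 alone, Dars was -0.20, Qars -0.074, Vars -0.25, Nars2 -0.044 and Rars2 -0.054. With total counts, Aars2 was 0.0043.

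Replicate numbers 1 and 2 are shared between groups but mark different embryos, and same-numbered libraries did not deviate together (correlations of -0.198 and 0.0157). With a replicate block, 0 members were called, 8 cytosolic and 1 mitochondrial enzymes were lower at an unadjusted p under 0.05, the medians were -0.18 and -0.030 with a difference of -0.15, and Aars2 was 0.039.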
